A study of Mus musculus with 32 samples.

Results

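The mouse genes named Zfp and a number ("zinc finger protein") are a large group of zinc finger genes, and their RNA was followed here through the first wave of spermatogenesis. The members were chosen by name and by level: protein-coding genes of GENCODE release M21 (build GRCm38) whose symbol is Zfp and a number, with a mean of at least 5 TPM (a transcript's share of the RNA in a sample, scaled to a fixed total and corrected for transcript length) over 28 juvenile mice. The mean TPM is the measured value that selected them, so the level itself is given as a description. Of 394 such genes in the annotation, 331 were in the gene table of 20368 genes and 237 passed, with 94 under the limit and 63 outside the table. Zfp84 (5.04 TPM), Zfp583 (5.08 TPM) and Zfp825 (5.15 TPM) lay just inside, and Zfp57 (4.999 TPM), Zfp473 (4.96 TPM) and Zfp820 (4.88 TPM) just outside. The means of the 237 members ran from 5.04 to 281 TPM with a median of 14.8, and 191 of them had a mean of at least 5 TPM at each of the 6 ages. The other 46 passed through the ages at which they were high, so a difference between ages was to be found among them more easily.

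Most proteins of this kind bind DNA through C2H2 fingers, in which a pair of cysteines and a pair of histidines hold a zinc ion, and each finger contacts a few bases. Many carry a KRAB box at the amino end, which recruits the co-repressor TRIM28 and, through it, the histone methyltransferase SETDB1 and heterochromatin protein HP1, and which is best known for silencing transposable elements and imprinted regions. Others have no KRAB box and act as activators, as partners of deacetylases, in mRNA decay, on ribosomes or at the spindle. A C2H2 pattern was found in the translated main transcript of 228 of the 237 members, with a median of 9 fingers per protein and up to 33, in Zfp142 and Zfp462, and a KRAB box pattern in 99. The 9 without a C2H2 pattern include Zfp36, Zfp36l1 and Zfp36l2, whose 2 fingers are of the CCCH type that binds RNA, and Zfp185, so the shared name does not stand for 1 kind of protein. The members lay on every chromosome but Y, with 57 on chromosome 7 and 24 on chromosome 17.

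Germ cells were isolated from single male C57BL/6J mice of 8 dpp (days post-partum) and, every 2 days, up to 18 dpp. The study took 5 mice at each age and left out 2 of 8 dpp that differed from the others of their age. It named too few cells as the likely reason. So 3 mice remain at 8 dpp, kept after their values were seen, and 5 at each of the other 5 ages. Pachytene and diplotene spermatocytes were enriched by sedimentation from adult C57BL/6J males of 9 weeks, with 4 samples, each of pooled mice. Over these ages spermatogonia are joined by leptotene, zygotene, pachytene and, at the end, diplotene spermatocytes, so the comparisons ask how Zfp RNA levels differ as meiotic prophase advances. In such mixed cells, fewer cells of a type and less RNA per cell cannot be told apart by the RNA values alone. The study also scored the substages of germ cells from the same mice by antibody labelling, and reported that most cells of each sample were germ cells. Those scores are not used here. The files give TPM and no counts, so the depth of each sample is unknown and the spread between mice is the only error given. A TPM difference is on the log2(TPM + 1) scale throughout, which understates changes of low genes. Whether counting used strand is not given, and 91 of the 237 members overlap a gene on the other strand, whose reads cannot then be told apart.

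The marker lists behaved as follows. All 8 spermatocyte markers rose and all 7 spermatogonial markers fell from 8 to 18 dpp, with sums of 212 to 301 TPM against 3335 to 5316 TPM for the first and 1089 to 1226 TPM against 486 to 688 TPM for the second. The 8 Sertoli cell markers, genes of the somatic cells that line the tubule, stood at 6904 to 7778 at 8 dpp, at 3259 to 4244 at 18 dpp and at 294 to 435 in adult samples, with 7 of the 8 genes lower at 18 than at 8 dpp. At 18 dpp mice 1 to 3 stood apart from mice 4 and 5, with 5222 to 5316 against 3335 to 3403 TPM of spermatocyte markers and 3259 to 3403 against 4196 to 4244 TPM of Sertoli markers. At 18 dpp, peritubular markers (4 genes, 1 of them lower than at 8 dpp) summed to 511 to 1011 TPM against 1030.2 to 1141 at 8 dpp, endothelial markers (3) to 29.3 to 59.5 against 48.3 to 53.5, macrophage markers (4) to 35.5 to 76.3 against 25.3 to 32.2, Leydig markers (5) to 166 to 465 against 173 to 196, red blood cell markers (4) to 180.4 to 244 against 153 to 468, and spermatid markers (5) to 0.990 to 8.39 against 1.85 to 4.52. The part of these lists in the results below was not tested.

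Between 8 and 18 dpp 71 members rose and 108 fell, and 58 did not pass the threshold (limma over all 20368 genes, Benjamini-Hochberg adjusted p below 0.05). These were 30.0% higher and 45.6% lower, beside 31.8% and 36.3% of all genes and 33.0% and 44.3% of the 11474 protein-coding genes at 5 TPM or more. That last set includes the members and is matched to them only by this lower limit. The share of members that rose or fell was near that of this set. The median log2 fold change of the members was -0.18, beside -0.09 for all genes and -0.14 for those protein-coding genes. Among the 191 members with at least 5 TPM at every age, 53 rose and 90 fell. The values at the 2 ages did not overlap in 60 of the 71 that rose (84.5%) and in 101 of the 108 that fell (93.5%). Of all genes that rose or fell the shares were 89.1% and 85.3%, and of the protein-coding ones at 5 TPM or more 91.4% and 87.1%. A change of at least 1 on the log2 scale was found in 27 members in each direction. The share of all genes with such a change is not given here. Any difference among the 6 ages was found in 195 members (82.3%), beside 77.6% of all genes and 89.1% of the protein-coding ones. The summed RNA of the members moved little, from 5506 ± 37.9 TPM at 8 dpp to 5376 ± 249.8 TPM at 18 dpp (SD, n = 3 and n = 5), with 5464 to 5539 and 5065 to 5735 TPM in single mice, which overlap.

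**Figure D1:**
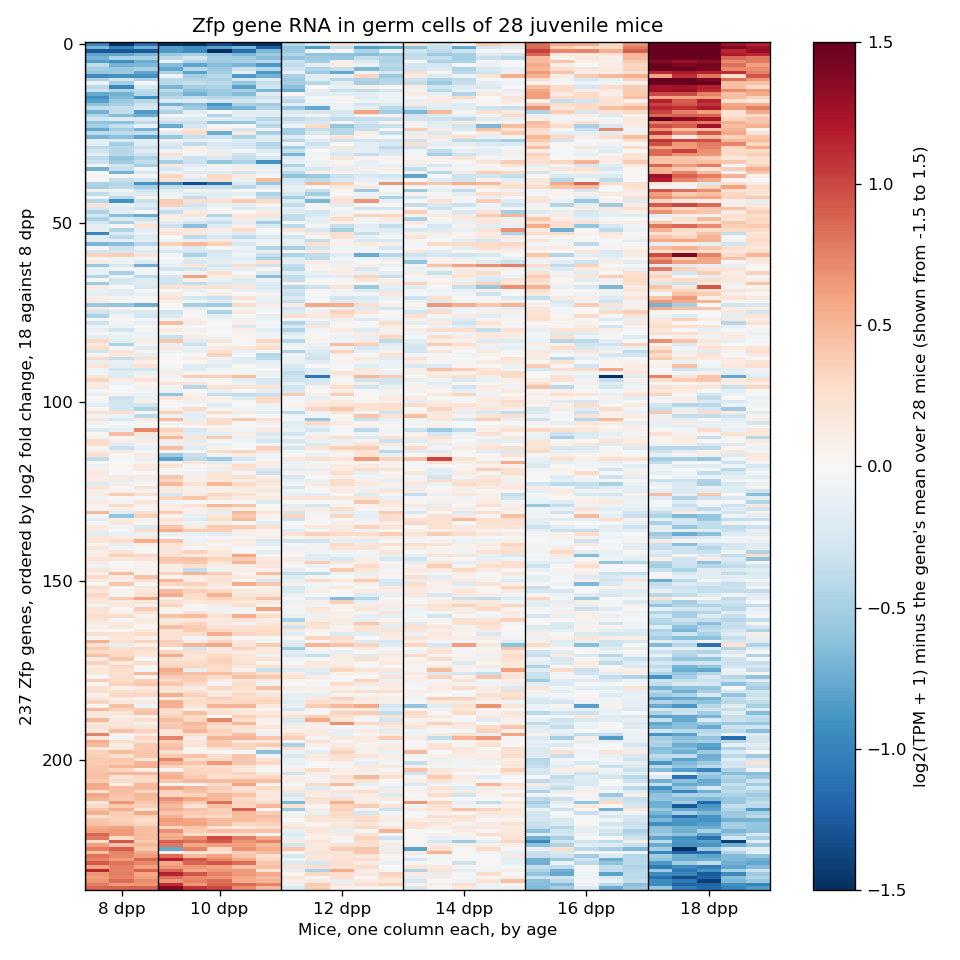
Each row is 1 of the 237 Zfp genes, ordered from the largest rise to the largest fall from 8 to 18 dpp, and each column is 1 of the 28 mice, grouped by age. Colour is log2(TPM + 1) minus the gene's mean over the 28 mice, and the 5 columns at 18 dpp show mice 1 to 3 further from the middle than mice 4 and 5 for many rising genes (51 of 71).

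The split between rising and falling members depended on the scaling. With median-of-ratios factors in place of plain TPM 87 members rose and 87 fell from 8 to 18 dpp, and with quantile normalization 58 rose and 123 fell. Of all genes 37.3% rose and 29.4% fell with the first and 27.2% and 44.9% with the second. The median of all genes moved by 0.14 and by -0.17 on the log2 scale under these 2 scalings, and the members' median relative to it was -0.09 with TPM, -0.07 with median-of-ratios factors and -0.06 with quantile normalization. In all 3 scalings 58 members rose and 87 fell. The share of all genes that did so in all 3 is not given here.

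Neighbouring ages were compared in the same fit. Of the steps between neighbouring ages, the last had the most calls, with 59 members higher and 73 lower at 18 than at 16 dpp, 24.9% and 30.8% beside 23.4% and 30.6% of all genes and 23.8% and 43.8% of protein-coding genes at 5 TPM or more. From 10 to 12 dpp 18 rose and 43 fell, 7.59% and 18.1% beside 12.0% and 9.39% of all genes and 16.6% and 12.1% of those protein-coding genes. From 14 to 16 dpp 12 rose and 39 fell, 5.06% and 16.5% beside 12.7% and 11.3% of all genes and 13.9% and 15.8% of the protein-coding ones. The share that fell in this step was thus near that of those protein-coding genes. With median-of-ratios factors these counts were 77 and 31 from 16 to 18 dpp, 19 and 23 from 14 to 16 dpp and 16 and 54 from 10 to 12 dpp. The shares of all genes in these steps under that scaling are not given here. From 8 to 10 dpp 3 members (Zfp935, Zfp60 and, named after its values were seen, Zfp612) rose and none fell, beside 0.977% and 0.226% of all genes and 1.45% and 0.235% of the protein-coding ones, and 35 had an unadjusted p under 0.05. Leaving out single mice in turn gave 0 to 4 of these calls, with 0 without mouse 1 of 8 dpp and 1 without mouse 2 or 3 of 8 dpp or without mouse 1, 2, 4 or 5 of 10 dpp. From 12 to 14 dpp limma called no member in either direction, beside 0.157% and 0.0147% of all genes and 0.139% and 0.00872% of the protein-coding ones, and 13 had an unadjusted p under 0.05. The library barcodes of 8 to 12 dpp were used again at 14 to 18 dpp, so libraries of these sets that share a barcode were not read in 1 pool, and the labels name no pool. Between 12 and 14 dpp, and between 8 and 18 dpp, age and any difference between such sets of libraries cannot be told apart. The largest falls past the threshold in these steps were those of Zfp462 and Zfp629 (-0.88 and -0.76) from 10 to 12 dpp, of Zfp618 and Zfp704 (-0.58 and -0.54) from 14 to 16 dpp and of Zfp362 and Zfp36l1 (-0.69 and -0.66) from 16 to 18 dpp, and the largest rises from 14 to 16 dpp those of Zfp42 and Zfp956 (0.98 and 0.94), on the log2 scale. The counts from 16 to 18 dpp depended on the mice of 18 dpp, as with mice 4 and 5 alone at 18 dpp 13 members rose and 17 fell, and with mice 1 to 3 alone 64 rose and 84 fell. From 8 to 18 dpp these counts were 55 and 92 with mice 4 and 5 and 71 and 107 with mice 1 to 3. These settings held 2 and 3 mice at 18 dpp, so the number of mice and the mice themselves cannot be told apart. The shares of all genes under these settings are not given here.

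**Figure D2:**
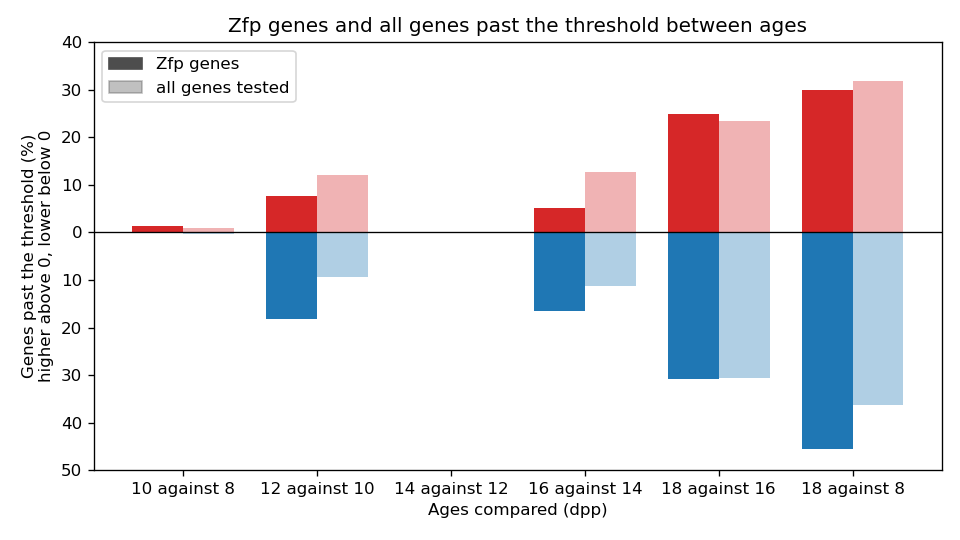
Bars give the share of genes past the threshold, higher above 0 and lower below 0, for each pair of ages, with the 237 Zfp genes in full colour and all 20368 genes in pale colour. From 10 to 12 and from 14 to 16 dpp the share of Zfp genes that fell (18.1% and 16.5%) is above that of all genes (9.39% and 11.3%), and that of protein-coding genes at 5 TPM or more, not drawn, is 12.1% and 15.8%. From 8 to 18 dpp the shares are 30.0% and 45.6% against 31.8% and 36.3%.

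Zfp541 had the largest rise from 8 to 18 dpp. It encodes a protein that acts with KCTD19 and the histone deacetylases HDAC1 and HDAC2 in meiotic prophase (ENSMUSG00000078796, chromosome 7, 16061814 to 16096334, plus strand, 5 C2H2 patterns). Its level was 10.8, 6.60 and 9.64 TPM in the 3 mice at 8 dpp and 6.95, 6.85, 8.22, 7.49 and 6.56 TPM in the 5 mice at 10 dpp. It was 16.2, 18.8, 25.4, 19.01 and 19.9 TPM at 12 dpp, 25.7, 18.1, 21.9, 29.4 and 26.8 TPM at 14 dpp and 40.4, 33.5, 33.2, 28.1 and 36.0 TPM at 16 dpp. At 18 dpp mice 1 to 5 had 105, 91.3, 85.8, 54.2 and 50.2 TPM, and every mouse from 12 dpp on was above every mouse at 8 and 10 dpp. The log2 fold change from 8 to 18 dpp was 2.94 (standard error 0.19, adjusted p = 4.86e-13), and those of the steps past the threshold were 1.33 from 10 to 12 dpp, 0.48 from 14 to 16 dpp and 1.10 from 16 to 18 dpp (adjusted p = 1.75e-06, 0.0383 and 8.49e-06). Its partner Kctd19, which is no Zfp gene, went from 1.46 ± 0.0757 to 224 ± 60.7 TPM (SD, n = 3 and n = 5), a log2 difference of 6.47 (standard error 0.26, adjusted p = 6.78e-17). Hdac1 rose from 117 ± 3.15 to 194 ± 18.4 TPM while Hdac2 fell from 174 ± 13.4 to 131 ± 13.0 TPM.

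Zfp956 and Zfp42 followed in size. Zfp956 (ENSMUSG00000045466, chromosome 6, 47953390 to 47965300, plus strand) overlaps Zfp783 on the same strand, so its reads cannot be wholly told apart from those of its neighbour. It had 11.8, 9.22 and 11.4 TPM at 8 dpp and 36.0, 25.9, 23.8, 24.3 and 34.3 TPM at 16 dpp. In mice 1 to 5 of 18 dpp it had 115, 103, 103, 53.0 and 49.1 TPM, so these 3 ages did not overlap and mice 1 to 3 stood well above mice 4 and 5. Its log2 fold change from 8 to 18 dpp was 2.78 (standard error 0.22, adjusted p = 1.60e-11), and it had the largest single step of all members, 1.46 from 16 to 18 dpp. Zfp42 (ENSMUSG00000051176, chromosome 8, 43295063 to 43306980, minus strand), also called Rex1 and known as a marker of pluripotent stem cells, had 2.34, 2.33 and 2.40 TPM at 8 dpp and 4.54, 6.99, 7.44, 4.88 and 6.73 TPM at 12 dpp. It reached 15.6, 12.4, 12.4, 10.7 and 13.9 TPM at 16 dpp and 22.5, 26.2, 22.5, 16.9 and 19.1 TPM at 18 dpp, where all 5 mice were above all 5 of 16 dpp. Its log2 fold change from 8 to 18 dpp was 2.73 (standard error 0.18, adjusted p = 5.89e-13), in steps of 0.85 from 10 to 12, 0.98 from 14 to 16 and 0.67 from 16 to 18 dpp.

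**Figure D3:**
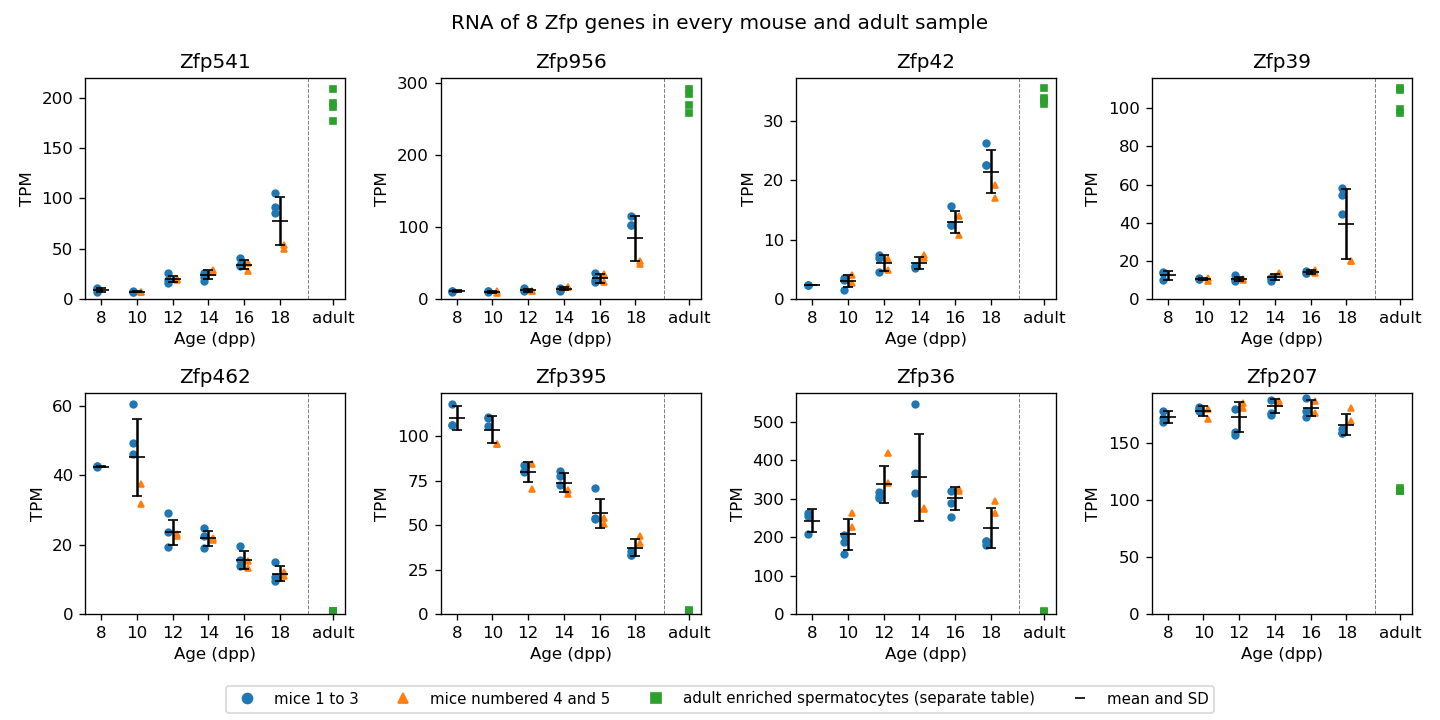
Each panel gives TPM of 1 Zfp gene by age in dpp, with circles for mice 1 to 3, triangles for later-numbered mice, a bar for the mean and SD, and squares for the 4 adult samples, which come from a separate table. Zfp541, Zfp956, Zfp42 and Zfp39 rise, Zfp462 and Zfp395 fall, Zfp36 is highest at 14 dpp, and Zfp207 stays between 157 and 189 TPM in the 28 mice.

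The other 5 of the 8 largest rises without overlap between 8 and 18 dpp were Zfp35, Zfp574, Zfp438, Zfp654 and Zfp110. Zfp35 went from 13.1 ± 0.672 to 73.3 ± 19.7 TPM, a log2 difference of 2.35 (standard error 0.16, adjusted p = 9.19e-13). Zfp574 (chromosome 7, 25072567 to 25083492) went from 14.03 ± 1.31 to 62.4 ± 23.6 TPM, a change of 1.99 (standard error 0.19, adjusted p = 6.73e-10), and Zfp438 from 4.52 ± 0.356 to 20.5 ± 4.64 TPM, a change of 1.93 (standard error 0.17, adjusted p = 8.34e-11). Zfp654 (chromosome 16, 64780347 to 64851652) rose by 1.79 (standard error 0.17, adjusted p = 6.83e-10). Zfp110 (chromosome 7, 12834761 to 12850577), whose product binds the neurotrophin receptor p75 and which alone of the 8 has a KRAB box pattern, rose by 1.74 (standard error 0.17, adjusted p = 5.56e-10). Up to 14 dpp their means were no higher than 17.2, 15.8, 7.62, 20.6 and 24.3 TPM in the order named, and each rose past the threshold from 16 to 18 dpp, by 1.24, 1.19, 0.82, 0.99 and 0.94. Zfp39 (chromosome 11, 58888153 to 58904225), a KRAB member that overlaps Gm12256 on the other strand, had the next largest step from 16 to 18 dpp after Zfp956, from 14.9, 13.9, 13.4, 13.5 and 15.1 to 58.0, 54.3, 44.9, 19.7 and 19.8 TPM, with mice 1 to 3 above 44 and mice 4 and 5 below 20 at 18 dpp. Of the 71 members that rose, 53 were also called higher from 16 to 18 dpp and 14 from 10 to 12 dpp. The same split of all genes that rose is not given here, so these counts cannot be read as particular to the members. In 51 of the 71 (71.8%) each of mice 1 to 3 at 18 dpp was above both mice 4 and 5, beside 63.6% of all genes that rose.

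Promoters of some of the members that changed most are printed here to set rising and falling genes side by side. RefSeq promoter windows of GRCm38.p6, 250 bases before to 50 after a start site, were found for 192 members. They are written 5′ to 3′ on the strand of the gene, with capitals for matches to the 6 motifs searched. The windows of Zfp541 and Zfp651 lie inside the longer GENCODE genes. ATTGG and AACTGTC are matches to CCAAT and MYB on the other strand.
Zfp541 (chr7:16071595-16071894, plus strand): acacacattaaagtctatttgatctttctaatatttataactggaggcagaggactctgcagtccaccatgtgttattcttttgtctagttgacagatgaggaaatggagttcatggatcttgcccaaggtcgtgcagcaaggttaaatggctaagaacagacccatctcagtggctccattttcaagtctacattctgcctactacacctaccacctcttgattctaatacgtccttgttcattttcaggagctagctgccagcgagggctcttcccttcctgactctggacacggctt
Zfp956 (chr6:47953140-47953439, plus strand): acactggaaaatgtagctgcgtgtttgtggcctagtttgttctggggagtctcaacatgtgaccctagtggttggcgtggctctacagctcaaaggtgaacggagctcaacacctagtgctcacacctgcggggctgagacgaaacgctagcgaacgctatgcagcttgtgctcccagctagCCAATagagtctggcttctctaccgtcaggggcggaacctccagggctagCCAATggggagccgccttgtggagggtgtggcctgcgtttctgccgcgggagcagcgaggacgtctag
Zfp42 (chr8:43306960-43307259, minus strand): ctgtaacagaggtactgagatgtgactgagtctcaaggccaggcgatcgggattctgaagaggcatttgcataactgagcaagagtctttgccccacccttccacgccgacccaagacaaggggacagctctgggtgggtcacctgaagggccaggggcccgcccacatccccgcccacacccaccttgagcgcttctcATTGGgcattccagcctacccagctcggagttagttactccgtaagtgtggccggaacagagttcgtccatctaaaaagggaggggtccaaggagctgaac
Zfp651 (chr9:121759783-121760082, plus strand): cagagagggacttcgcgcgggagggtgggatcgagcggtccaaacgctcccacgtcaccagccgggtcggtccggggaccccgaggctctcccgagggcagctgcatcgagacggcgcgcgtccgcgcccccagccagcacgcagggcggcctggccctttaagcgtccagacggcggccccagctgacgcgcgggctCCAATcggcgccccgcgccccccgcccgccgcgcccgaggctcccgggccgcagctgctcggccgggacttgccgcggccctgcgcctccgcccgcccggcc
Zfp871 (chr17:32788238-32788537, minus strand): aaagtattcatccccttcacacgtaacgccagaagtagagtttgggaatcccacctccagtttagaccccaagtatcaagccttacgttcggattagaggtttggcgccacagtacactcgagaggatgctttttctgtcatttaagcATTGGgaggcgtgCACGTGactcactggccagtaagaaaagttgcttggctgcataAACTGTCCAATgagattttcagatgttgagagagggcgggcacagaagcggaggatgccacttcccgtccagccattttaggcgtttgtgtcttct
Zfp618 (chr4:62965317-62965616, plus strand): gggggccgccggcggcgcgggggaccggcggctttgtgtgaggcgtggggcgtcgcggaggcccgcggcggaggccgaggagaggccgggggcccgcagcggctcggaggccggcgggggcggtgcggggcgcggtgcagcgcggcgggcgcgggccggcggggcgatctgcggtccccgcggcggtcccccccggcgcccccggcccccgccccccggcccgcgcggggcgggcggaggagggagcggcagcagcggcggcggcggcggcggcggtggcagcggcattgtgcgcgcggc

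The first 3 rose from 8 to 18 dpp and the last 3 fell. Both strands were searched for CRE (TGACGTCA), E-box (CACGTG), NRF1 (GCGCATGC), ZFP143 core (CCCAGNATG), MYB (GNCAGTT) and the CCAAT box (CCAAT). Zfp956 holds CCAAT at positions 183 to 187 and 233 to 237 of its window, Zfp42 at 200 to 204 and Zfp651 at 199 to 203. Zfp871 holds CCAAT at 149 to 153 and 211 to 215, an E-box at 162 to 167 and MYB at 205 to 211, which shares its last base with the second CCAAT. The windows of Zfp541 and Zfp618 held none of these letters. Of windows not printed, the 3 of Zfp629, which fell, held none either, and the other window of Zfp871 held CCAAT at 70 to 74 and 163 to 167. The window of Zfp110, which rose, is not printed either and held CCAAT at 87 to 91. The GC content of the Zfp541 window was 44.7% with 4 CpG pairs, against 58.3% and 16 for Zfp956, 57.7% and 11 for Zfp42, 78.7% and 46 for Zfp651, 49% and 12 for Zfp871 and 88% and 59 for Zfp618. Over the members the median promoter had 57.7% GC and 17 CpG pairs, beside 52.7% and 7 over all 32851 promoters. CCAAT was in 47.1% of the 68 promoters of members that rose, in 38% of the 100 of members that fell and in 37.4% of all promoters. NRF1 was in 8.82%, 4% and 2.71%, the ZFP143 core in 5.88%, 1% and 2.04%, CRE in 2.94%, 2% and 1.79%, the E-box in 2.94%, 3% and 7.15%, and MYB in 11.8%, 10% and 12.8%. The difference between the sets was not tested, and several promoters can belong to 1 gene.

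Zfp462 had the largest fall. It is 1 of the 2 members with the most C2H2 patterns, 33, and is known for roles in chromatin and nervous system development (ENSMUSG00000060206, chromosome 4, 54945048 to 55083563, plus strand). It had 42.4, 42.7 and 42.6 TPM at 8 dpp and 60.7, 49.4, 46.3, 37.7 and 31.8 TPM at 10 dpp. The 5 mice at 12 dpp had 19.5, 29.3, 23.8, 23.1 and 22.6 TPM, all below the mice of 8 and 10 dpp, and those of 18 dpp had 15, 10.6, 9.65, 10.9 and 12.2 TPM. The log2 fold change from 8 to 18 dpp was -1.80 (standard error 0.16, adjusted p = 9.96e-11), with -0.88 of it from 10 to 12 dpp. Zfp395 (chromosome 14, 65358389 to 65398930), among the 10 most abundant members and overlapping Gm48449 on the other strand, had 106, 118 and 106 TPM at 8 dpp and 33.2, 35.7, 33.5, 40.1 and 44.1 TPM at 18 dpp. These do not overlap, with a log2 difference of -1.54 (standard error 0.10, adjusted p = 1.87e-13), and steps of -0.37, -0.38 and -0.59 from 10 to 12, 14 to 16 and 16 to 18 dpp passed the threshold.

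The other 6 of the 8 largest falls were Zfp704, Zfp651, Zfp362, Zfp618, Zfp871 and Zfp629. Zfp704 (chromosome 3, 9427020 to 9610085), overlapped on the other strand by C030034L19Rik and Gm38001, went from 22.2 ± 1.10 to 5.97 ± 0.653 TPM, a change of -1.74 (standard error 0.13, adjusted p = 3.23e-12). Zfp651 (chromosome 9, 121759330 to 121771742), overlapped by E530011L22Rik, went from 17.2 ± 1.15 to 4.83 ± 1.31 TPM, a change of -1.67 (standard error 0.16, adjusted p = 8.14e-10). Zfp362 (chromosome 4, 128773088 to 128806045) went from 72.8 ± 3.44 to 23.9 ± 6.83 TPM, a change of -1.61 (standard error 0.13, adjusted p = 4.12e-11). Its largest step was the last, -0.69, whereas that of Zfp629 (chromosome 7, 127607031 to 127615797) was from 10 to 12 dpp, -0.76 of -1.47 in all (adjusted p = 1.72e-09 from 8 to 18 dpp). Zfp618 (chromosome 4, 62965573 to 63139708) fell from 9.62 ± 0.669 to 2.53 ± 0.657 TPM, and Zfp871 (chromosome 17, 32765496 to 32788287), the only one of the 8 with a KRAB box pattern, from 15.4 ± 2.23 to 4.58 ± 1.16 TPM, changes of -1.60 and -1.58 (adjusted p = 1.53e-09 and 9.57e-08). Of the 108 members that fell, 64 were also called lower from 16 to 18 dpp and 41 from 10 to 12 dpp. The same split of all genes that fell is not given here, so these 2 counts cannot be read as particular to the members. All of mice 1 to 3 at 18 dpp were below mice 4 and 5 in 46 of the 108 members (42.6%), beside 56.6% of all genes that fell. The Sertoli and spermatogonial marker lists fell over the same ages, as given above, and their part in these falls was not tested.

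The 5 most abundant members have no KRAB box pattern. Zfp36 (tristetraprolin, chromosome 7, 28376784 to 28380253) binds AU-rich elements of mRNAs and promotes their decay, and with a mean of 281 TPM it had the highest level of all 237. Its mice had 208, 264 and 255 TPM at 8 dpp, 366, 547, 316, 275 and 274 TPM at 14 dpp and 189, 191, 180.0, 264 and 295 TPM at 18 dpp. One mouse of 14 dpp was well above the others, and the mice of 8 and 18 dpp overlapped. Zfp36 rose from 10 to 12 dpp by 0.71 and fell from 16 to 18 dpp by 0.45 on the log2 scale (adjusted p = 0.00235 and 0.0233), and its change from 8 to 18 dpp was -0.14 (standard error 0.19, adjusted p = 0.534). Its relatives Zfp36l1 (chromosome 12, 80107754 to 80113013) and Zfp36l2 (chromosome 17, 84183931 to 84187947), which bind the same elements, fell, and each of the 3 genes overlaps another on the other strand. Zfp36l1 went from 134, 164 and 146 TPM to 49.3, 41.9, 44.0, 70.7 and 88.0 TPM, a change of -1.37 (standard error 0.17, adjusted p = 7.55e-08), and Zfp36l2 from 99.5, 107 and 106 TPM to 46.1, 37.0, 44.3, 56.5 and 63.2 TPM, a change of -1.08 (standard error 0.11, adjusted p = 1.50e-09). In both, all mice of 18 dpp were below all of 8 dpp.

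Zfp36 is itself an immediate early gene in many cells, so a list of such genes, which respond quickly to stress on cells, stands beside it. The 10 genes summed to between 3730.3 and 4589 TPM at 8 dpp, between 3234 and 5296 at 14 dpp, between 1872 and 3074 at 18 dpp and between 47.7 and 68.3 in adult samples, and 8 of the 10 were lower at 18 than at 8 dpp and all 10 lower at 18 than at 16 dpp. Its part in the levels of Zfp36 was not tested. Zfp207 (BuGZ, chromosome 11, 80383279 to 80405733), which loads the checkpoint protein BUB3 at kinetochores, was second at a mean of 176 TPM and had 173 ± 4.92 TPM at 8 dpp and 166 ± 9.26 TPM at 18 dpp, a change of -0.06 (standard error 0.06, adjusted p = 0.362) that turned positive with median-of-ratios factors. Bub3 went from 71.9 ± 1.16 to 83.5 ± 5.39 TPM (adjusted p = 0.00755). Zfp740 (chromosome 15, 102203249 to 102215606, overlapping Csad on the other strand) fell from 111 ± 4.82 to 50.4 ± 6.79 TPM, a change of -1.13 (standard error 0.09, adjusted p = 1.63e-11).

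The 99 members with a KRAB box pattern had lower levels than the 138 without, with a median of 8.35 against 23.5 TPM, and more C2H2 patterns, with a median of 12 against 7. From 8 to 18 dpp 23 of the 99 rose and 38 fell, with a median log2 fold change of -0.13, and 48 of the 138 rose and 70 fell, with a median of -0.22. By number of C2H2 patterns, 16 of the 43 members with 1 to 4 rose and 18 fell, 21 and 33 of the 68 with 5 to 9, 19 and 33 of the 75 with 10 to 14, and 14 and 19 of the 42 with at least 15. From 10 to 12 dpp 2 KRAB members rose and 17 fell, against 16 and 26 of the others. The difference between these sets was not tested. Besides Zfp110 and Zfp39, the KRAB members with the largest rises from 8 to 18 dpp were Zfp689 (1.70, standard error 0.18, adjusted p = 4.79e-09) and Zfp382 (1.65, standard error 0.20, adjusted p = 5.03e-08), and besides Zfp871 those with the largest falls were Zfp266 (-1.28, standard error 0.11, adjusted p = 3.45e-11) and Zfp945 (-1.24, standard error 0.17, adjusted p = 5.43e-07), all 4 chosen after their values were seen. In some mice the level of Zfp382 was over 0.2 TPM away from its summed transcripts.

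Zfp445 and Zfp57 guard imprinted regions, and Zfp809 silences retroviruses. Zfp445 (chromosome 9, 122844529 to 122866006) had 29.0 ± 1.00 TPM at 8 dpp, 35.02 ± 2.45 TPM at 14 dpp and 30.6 ± 1.85 TPM at 18 dpp, and its change from 8 to 18 dpp was 0.07 (standard error 0.09, adjusted p = 0.487). Zfp809 (chromosome 9, 22225714 to 22243354) lay between 14.4 ± 3.32 and 16.2 ± 2.97 TPM, at 12 and 18 dpp, and the test over the 6 ages gave an adjusted p = 0.907. Neither passed the threshold between 8 and 18 dpp. Zfp445 is, though, 1 of the 10 members given below that were highest at 12 or 14 dpp. Its changes were 0.26 from 8 to 14 dpp and -0.19 from 14 to 18 dpp (limma, adjusted p = 0.0342 and 0.0425). Zfp57, Zfp473 and Zfp37 were not members, with means of 4.999, 4.96 and 4.10 TPM. Among 16 genes of the KRAB co-repressor machinery, 5 rose and 6 fell from 8 to 18 dpp. Trim28 rose from 344 ± 4.06 to 436 ± 21.1 TPM (0.34, standard error 0.07, adjusted p = 0.000153), and Setdb1 had 80.6 ± 6.29 and 81.8 ± 2.53 TPM (0.02, standard error 0.07, adjusted p = 0.794). Of the HP1 genes, Cbx3 fell from 206 ± 6.54 to 121 ± 15.8 TPM (-0.77, standard error 0.07, adjusted p = 1.86e-10). Cbx1 had 76.4 ± 8.04 and 84.4 ± 7.01 TPM (0.14, adjusted p = 0.0850) and Cbx5 34.9 ± 3.52 and 35.9 ± 4.31 TPM (0.03, adjusted p = 0.809), so neither passed the threshold.

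Zfp genes arose in part by local duplication and many lie in clusters. With gaps of at most 250 kb between neighbours, 101 members were in clusters of at least 3 Zfp genes. Of these 101, 30 rose and 39 fell from 8 to 18 dpp, and of the other 136 41 rose and 69 fell. Neighbours did not all move one way. In the cluster on chromosome 7 from 29768552 to 30169750, with 9 members from Zfp84 to Zfp146, 6 fell and 1, Zfp382, rose, with a median of -0.41. Zfp568, which represses a placental transcript of Igf2, fell there from 17.7 ± 1.2 to 9.66 ± 1.08 TPM while Zfp382 rose from 2.90 ± 0.0929 to 11.5 ± 2.73 TPM. In the cluster on the same chromosome from 127233061 to 127885996, with 8 members from Zfp553 to Zfp646, 5 rose and 3 fell, with a median of 0.55. Zfp646 rose there from 27.2 ± 1.06 to 68.5 ± 25.6 TPM and Zfp629 fell. In the cluster of Zfp956 on chromosome 6 from 47835661 to 48086593, 3 of the other 5 members fell, with Zfp398 from 28.3 ± 4.01 to 11.7 ± 1.70 TPM, and 2 did not pass the threshold. Zfp956, the largest rise but one, was thus the only member of its cluster that rose. In the cluster on chromosome 9 from 20345136 to 20605409, 3 of 5 members fell and none rose, Zfp266 from 45.2 ± 2.89 to 18.1 ± 1.75 TPM. In 15 members at least 10% of the 50-base words of their annotated transcripts occur in other protein-coding Zfp genes. These shares were 83.5% in Zfp993 and 80.2% in Zfp97. Reads of these 15 may be split between copies, so their levels are uncertain. Genes of other names and pseudogenes were not searched for such words, so the remaining members may have copies there. The members named for their clusters or their copies here were chosen after their values were seen.

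The X chromosome is silenced in pachytene spermatocytes, and 5 members are X-linked. Zfp275 (chromosome X, 73342621 to 73359080) had 63.8, 61.0 and 57.1 TPM at 8 dpp and 29.5, 25.7, 24.97, 28.8 and 28.8 TPM at 18 dpp, a change of -1.11 (standard error 0.08, adjusted p = 1.77e-12). Zfp711 (chromosome X, 112600526 to 112635070), a partner of the demethylase PHF8, fell from 40.9 ± 2.08 to 29.0 ± 3.20 TPM (-0.48, standard error 0.11, adjusted p = 0.000312), Zfp280c (chromosome X, 48541625 to 48594504) from 18.7 ± 1.92 to 13.3 ± 0.853 TPM (-0.46, standard error 0.09, adjusted p = 3.42e-05) and Zfp185 (chromosome X, 72987339 to 73031543), a LIM protein of the cytoskeleton, from 9.43 ± 0.503 to 4.96 ± 1.87 TPM (-0.86, standard error 0.16, adjusted p = 3.63e-05). Zfp449 (chromosome X, 56346400 to 56365674) had 5.53 ± 0.821 and 5.03 ± 0.946 TPM (-0.12, standard error 0.16, adjusted p = 0.530). Of all 470 X-linked protein-coding genes at 5 TPM or more, 348 were lower and 38 higher at 18 than at 8 dpp, with a median of -0.63, against -0.48 for the 5 members. In adult samples all 5 members were below every mouse of 18 dpp, at 1.60, 3.36, 2.17, 0.800 and 0.520 TPM in the order named. So were 462 of the 470 X-linked protein-coding genes at 5 TPM or more, with 0 above, and 53.3% of all genes shared by the juvenile and adult data.

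A group of 10 members was highest at 12 or 14 dpp and passed the threshold both upward from 8 dpp and downward to 18 dpp, 4.22% of the members beside 5.64% of all genes and 8.01% of protein-coding genes at 5 TPM or more. Zfp239 (chromosome 6, 117862100 to 117873291) had 3.76, 3.65 and 3.27 TPM at 8 dpp, 6.17, 10.02, 9.22, 8.37 and 8.99 TPM at 14 dpp and 3.29, 3.96, 5.98, 4.70 and 4.91 TPM at 18 dpp, with all mice of 14 dpp above all of the other 2 ages. Its log2 fold changes were 1.05 from 8 to 14 dpp (adjusted p = 9.11e-05) and -0.78 from 14 to 18 dpp (adjusted p = 0.000117). Zfp113 (chromosome 5, 138139702 to 138155744), a KRAB member, had 3.60 ± 0.757, 8.31 ± 1.82 and 5.04 ± 0.405 TPM at these ages, with changes of 1.01 and -0.60 (adjusted p = 7.88e-05 and 0.00107). Zfp36, given above, was the third by size, and the other 7 rose by 0.24 to 0.48 to their highest age and fell by 0.19 to 0.77 from it on the log2 scale. Zfp536 (chromosome 7, 37472135 to 37773641), which restrains neuronal differentiation, had the largest rise from 10 to 12 dpp after Zfp541, from 4.27 ± 1.66 to 9.97 ± 2.76 TPM (1.07, standard error 0.19, adjusted p = 0.000116). From 8 to 10 dpp the largest rises were in Zfp935 (chromosome 13, 62453715 to 62558511, from 3.87 ± 0.960 to 7.72 ± 0.409 TPM, 0.86, standard error 0.21, adjusted p = 0.0327) and Zfp60 (chromosome 7, 27731389 to 27753702, from 4.18 ± 0.537 to 7.91 ± 1.87 TPM, 0.76, standard error 0.15, adjusted p = 0.00819). Zfp935 overlaps Zfp934 and other genes on the same strand. Of the 50-base words of its annotated transcripts, 5.31% occur in other protein-coding Zfp genes, so its reads may be split.

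Members with known roles in gene control or translation are given next. Zfp143 (chromosome 7, 110061217 to 110095394), an activator that binds many promoters, fell from 15.7 ± 1.85 to 11.6 ± 0.854 TPM (-0.40, standard error 0.09, adjusted p = 0.000329). Its co-factors Thap11 and Hcfc1 fell from 58.7 ± 2.71 to 43.2 ± 7.25 TPM and from 87.7 ± 0.655 to 45.1 ± 3.95 TPM. Zfp148 (chromosome 16, 33380836 to 33504363) and Zfp281 (chromosome 1, 136624901 to 136630053), relatives that bind GC-rich DNA, both fell by 0.68 on the log2 scale, from 41.6 ± 3.26 to 25.7 ± 1.73 TPM and from 44.0 ± 2.61 to 27.0 ± 1.51 TPM (adjusted p = 1.60e-07 and 2.36e-08). Zfp644 (chromosome 5, 106616739 to 106697287), which acts with the histone methyltransferases EHMT1 and EHMT2, fell by 0.32 on the log2 scale (adjusted p = 0.00347), while Ehmt1 fell from 45.6 ± 2.74 to 26.0 ± 1.98 TPM and Ehmt2 from 236 ± 3.92 to 190.4 ± 20.9 TPM. Zfp410 (chromosome 12, 84316852 to 84343723), an activator of Chd4, fell by 0.31 on the log2 scale (adjusted p = 0.00311), and Chd4 from 229 ± 5.59 to 153 ± 16.4 TPM. The falls of Zfp644 and Zfp410 did not pass the threshold with median-of-ratios factors. Zfp105 (chromosome 9, 122923072 to 122931028) rose from 15.3 ± 1.48 to 30.5 ± 7.11 TPM (0.93, standard error 0.13, adjusted p = 3.61e-07). Zfp91 (chromosome 19, 12763660 to 12796126), a ubiquitin ligase, and Zfp217 (chromosome 2, 170108643 to 170148103), a partner of the CoREST complex, rose to 97.8 ± 13.9 and 51.2 ± 10.9 TPM from 80.4 ± 4.15 and 41.2 ± 1.64 TPM (0.27 and 0.28, adjusted p = 0.00726 and 0.0432), and with mice 4 and 5 alone at 18 dpp these changes were 0.05 and -0.06. The call on Zfp217 was also lost without any 1 of the 3 mice of 8 dpp or any 1 of mice 1 to 3 of 18 dpp (0.20 to 0.31). Zfp598 (chromosome 17, 24669687 to 24682016), a ligase that marks collided ribosomes, and Zfp326 (chromosome 5, 105876565 to 105915818), of a complex that links splicing and transcription, had 58.4 ± 5.09 and 43.9 ± 1.78 TPM at 18 dpp and did not pass the threshold against 8 dpp (0.10 and -0.09, adjusted p = 0.234 and 0.392). Of the 10 partner genes listed for Zfp541, Zfp143, Zfp644, Zfp207 and the Zfp36 family, of which Hdac1 and Hdac2 are also on the co-repressor list, 5 rose (Kctd19, Hdac1, Tdrp, Bub3 and Cnot1) and 5 fell from 8 to 18 dpp.

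Transcript use is a readout that did not choose the members. The test set the 8 mice of 8 and 10 dpp against the 10 mice of 16 and 18 dpp and used the percentage that a transcript takes of its gene's TPM, with calls at a change of at least 20 points and an adjusted p below 0.05. Of 128 members with at least 2 transcripts to compare, 4 had a called transcript (Zfp318, Zfp956, Zfp286 and Zfp40), 3.13% beside 5.14% of all 6989 genes. Zfp318 (ENSMUSG00000015597, chromosome 17, 46383731 to 46420920, plus strand), known from testis and from B cells, had the largest change of any member. Its transcript ENSMUST00000138127 took 14.1, 7.66 and 13.4% in the mice of 8 dpp, 28.1, 38.4, 35.1, 34.6 and 26.8% at 12 dpp and 72.3, 73.9, 73.1, 67.6 and 65.6% at 18 dpp. Its transcript ENSMUST00000113481 took 71.8, 67.0 and 70.1% at 8 dpp and 24.1, 21.8, 23.7, 26.9 and 30.3% at 18 dpp, so the order of the 2 was reversed in every mouse between these ages. Between the 2 pairs of ages the first rose by 49.9 points (adjusted p = 2.05e-07) and the second fell by 39.5 points (adjusted p = 1.77e-07).

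In TPM the 2 transcripts of Zfp318 behaved differently. ENSMUST00000138127 went from 5.75 ± 1.92 to 93.6 ± 24.0 TPM while ENSMUST00000113481 had 33.9 ± 2.66 and 32.7 ± 3.62 TPM (SD, n = 3 and n = 5), so the rise of the gene, from 48.6 ± 2.13 to 132 ± 27.9 TPM (1.39, standard error 0.14, adjusted p = 1.35e-09), lay in the first. In the annotation the first 7 coding segments are the same in both. ENSMUST00000138127 then ends in an exon of its own, from 46420415 to 46420920 of chromosome 17, and encodes 1154 codons, whereas ENSMUST00000113481 has 3 further coding segments from 46409680 on and encodes 2237 codons. Zfp956 shifted to its coding transcript ENSMUST00000101445, from 68.5% to 93.4% (24.9 points, adjusted p = 4.34e-05), and away from ENSMUST00000140719, annotated for nonsense-mediated decay, from 31.5% to 5.99% (adjusted p = 5.13e-05). In Zfp286 (chromosome 11, 62752577 to 62789462) the short coding transcript ENSMUST00000108705 (156 codons) fell from 52.4% to 26.8% (adjusted p = 0.00462) while ENSMUST00000054654 (519 codons) rose from 28.6% to 49.0% (adjusted p = 0.0437). Single mice of 16 dpp had from 0% to 31.7% of ENSMUST00000108705, whose mean was 1.30 TPM there, and those of 18 dpp from 25.7% to 57.6%. Zfp286, which several genes overlap on the other strand, as a whole rose from 5.86 ± 0.984 to 14.3 ± 3.47 TPM (1.14, standard error 0.24, adjusted p = 0.000126).

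**Figure D4:**
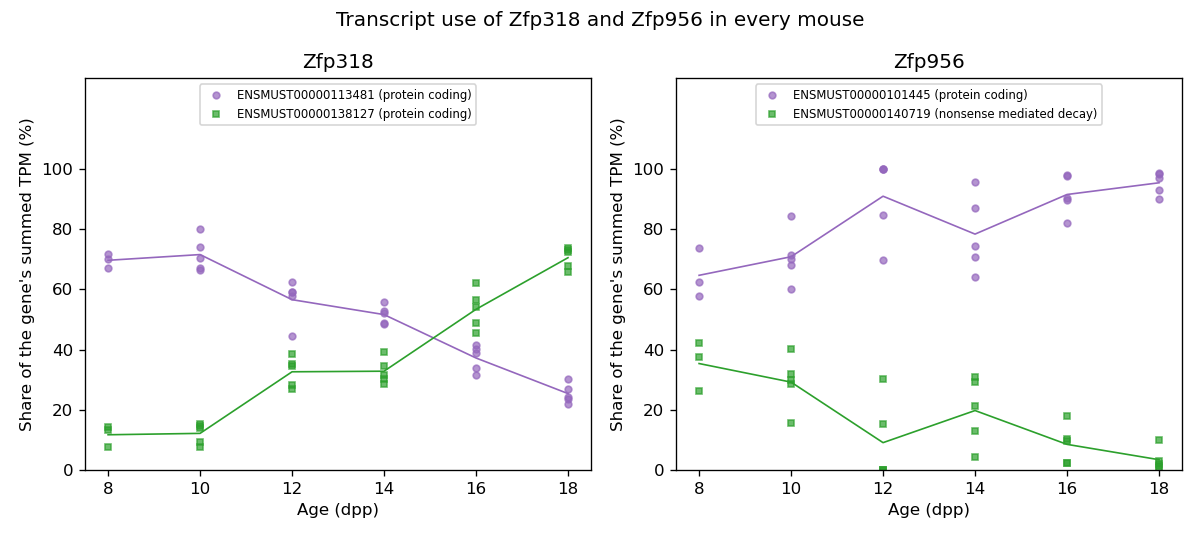
Each point is 1 mouse and gives a transcript's share of its gene's summed TPM in percent by age in dpp, with lines through the means at each age. For Zfp318 the transcript ENSMUST00000138127 goes from 11.7% at 8 dpp to 70.5% at 18 dpp and crosses ENSMUST00000113481 between 14 and 16 dpp.

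In adult enriched pachytene and diplotene spermatocytes all 237 members had a value. The adult samples are in a separate table from another library batch, so the values stand side by side with no test. All 4 adult samples were above all 5 mice of 18 dpp in 57 members (24.1%) and below them in 137 (57.8%), beside 22.3% and 53.3% of all genes shared by the tables and 22.7% and 63.9% of protein-coding genes at 5 TPM or more. With median-of-ratios factors over the shared genes the counts were 117 and 74, beside 39.3% and 35.9% of all genes. The median of all genes, as adult minus 18 dpp on the log2 scale, was -0.66 with TPM and -0.005 with these factors, and that of the members -0.56 and 0.32, so their direction on balance turned with the scaling. Of the 71 members that rose from 8 to 18 dpp, 45 were above 18 dpp in adult cells and 8 below, and of the 108 that fell 1 was above and 100 were below. As shares these were 63.4% and 11.3% of the members that rose, beside 60.9% and 17.8% of all genes that rose, and 0.926% and 92.6% of those that fell, beside 1.61% and 85.8%. For protein-coding genes at 5 TPM or more the shares were 60.2% and 21.5% of those that rose and 1.47% and 92.4% of those that fell. The 1 was Zfp433, named after its values were seen, with means of 12.1 TPM at 8 dpp, 9.33 TPM at 18 dpp and 14.2 TPM in adult cells.

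In adult cells 14 members had at least 100 TPM, of which 13 had risen from 8 to 18 dpp, and 31 members had under 1 TPM, of which 25 had fallen and none had risen. The same split over all genes is not given here, so these counts cannot be read as particular to the members. The highest were Zfp956 with 270.4, 285, 259 and 293 TPM, Zfp318 with 267, 269.9, 256 and 264 TPM and Zfp35 with 224, 223, 224 and 224 TPM. Each was above its highest mouse of 18 dpp (115, 158 and 93.7 TPM), and the largest rises to adult cells on the log2 scale were those of Zfp956, Zfp35 and Zfp110 (1.78, 1.64 and 1.60). The largest falls were in Zfp36, with 6.12, 8.08, 5.63 and 3.83 TPM in adult samples, Zfp36l1 with 1.62, 2.18, 2.08 and 2.64 TPM and Zfp740 with 2.67, 1.82, 2.36 and 2.96 TPM, differences of -5.03, -4.20 and -3.90. Zfp541, Zfp42 and Zfp39 had means of 193, 34.0 and 104 TPM in adult cells, all above 18 dpp, and Zfp462 and Zfp395 had 0.825 and 1.77 TPM. Over the same groups Sertoli markers went from 3259 to 4244 TPM at 18 dpp to 294 to 435 TPM, and their part in the falls was not tested. Spermatid markers stood at 0.990 to 8.39 TPM at 18 dpp and at 519 to 717 TPM in adult samples. Their part in the rises to adult cells was not tested.

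**Figure D5:**
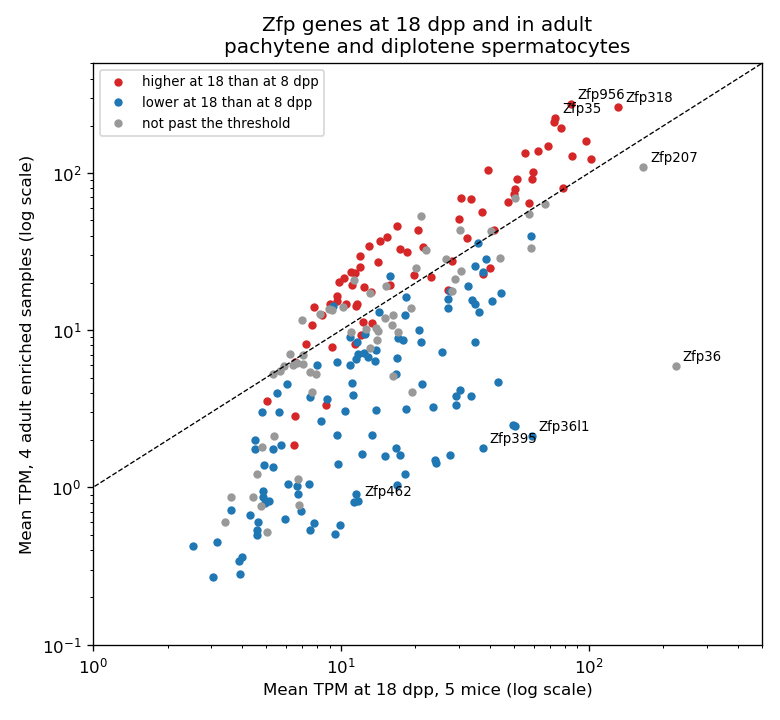
Each point is 1 of the 237 Zfp genes, with the mean TPM of 5 mice of 18 dpp on the x axis and of 4 adult enriched samples on the y axis, both on log scales, coloured by the call from 8 to 18 dpp. Most genes that had risen lie on or above the dashed line of equal level and most that had fallen lie below it, with Zfp36 (224 against 5.92 TPM) farthest below.

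Other named families of zinc finger genes stand beside the Zfp genes for comparison. Of 38 Zbtb genes, which join fingers to a BTB domain, at 5 TPM or more, 11 rose and 16 fell from 8 to 18 dpp, with a median of 0.004. Of 18 Zscan and Zkscan genes, which carry a SCAN domain, 10 rose and 3 fell, with a median of 0.44. No difference between the families was tested.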

How the data were processed

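RNA-seq values of germ cells from 28 juvenile mice and of 4 adult enriched samples were used. Per the labels and the study's methods, the authors made TPM values from poly-A paired-end libraries with Bowtie 1.0.0 and RSEM 1.2.8 on mm10, and whether counting used strand is not given in the sources used here. The transcript table and the adult gene table were deposited in TPM. The deposited juvenile gene table held another scale, exp(log2(TPM + 1)) - 1, which was converted back: 20288 of 20368 genes then lay within 0.2 TPM of their summed transcripts. The table's 20368 genes are those the authors kept.

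The 6 ages were fitted in 1 model with limma 3.58.1 (R 4.3.3) on log2(TPM + 1), with the prior variance following the mean and with Benjamini-Hochberg adjustment over all genes and a threshold of 0.05. Transcript use was tested with limma on percentages, for genes with at least 3 TPM and transcripts with at least 1 TPM. The limma fits of gene levels and of transcript use were checked on simulated data. The members, the gene lists and the partners were chosen with earlier results of these data known. Genes named are the 8 largest rises and falls from 8 to 18 dpp without overlap, the 5 highest, the 2 largest rises and falls of each step, the X-linked members, the 3 highest in adult cells and the 3 largest differences to them, the 3 largest changes of transcript use, the 3 largest transient members and members of known role. KRAB (at least 7 of 10 conserved positions) and C2H2 patterns were read from translated GENCODE M21 main transcripts, in place of the RefSeq proteins planned. Each juvenile sample is 1 mouse, and same-numbered mice are different animals. Alternatives were other scalings, filters, pseudocounts, covariates, thresholds and left-out samples. The split of the 18 dpp mice was added after seeing the data.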

Additional observations from a re-analysis of the deposited data

Results flagged for a closer look

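Among the 49 named members, each group of 4 or 5 samples was searched for a single sample far from the others (Dixon's gap over range). Of 294 groups, 16 held one, where chance gives about 1 in 20. At 10 dpp mouse 1 was high for Zfp438 (8.16 TPM, others 5.81 to 6.35) and Zfp148 (53.0 TPM, others 43.6 to 45.4), and mouse 4 was low for Zfp39 (9.26 TPM, others 10.6 to 11.1). At 12 dpp mouse 3 was low for Zfp651 (9.04 TPM, others 10.8 to 11.2) and high for Zfp39 (12.6 TPM, others 9.68 to 10.4). At 14 dpp mouse 1 was low for Zfp60 (6.5 TPM, others 8.33 to 8.60) and mouse 2 for Zfp318 (48.2 TPM, others 57.5 to 61.0). At 16 dpp mouse 3 was high for Zfp395 (70.9 TPM, others 50.5 to 54.1) and low for Zfp60 (4.86 TPM, others 6.44 to 6.80), mouse 5 was high for Zfp445 (35.4 TPM, others 30.0 to 30.8) and low for Zfp281 (28.6 TPM, others 30.5 to 31.2), and mouse 2 was high for Zfp598 (66.1 TPM, others 56.5 to 59.0). At 18 dpp mouse 1 was high for Zfp143 (13.1 TPM, others 11.1 to 11.5) and mouse 4 low for Zfp644 (34.9 TPM, others 39.3 to 39.8). Adult sample 2 was low for Zfp35 (223 TPM, others 224.2 to 224.4) and for Zfp536 (3.18 TPM, others 3.39 to 3.43), differences of under 2 TPM.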

How the results depend on the processing

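Depth is unknown, the 3 mice of 8 dpp limit every comparison with that age, and the TPM scale lets a few abundant genes move all others. Counts of members moved by over 1.5 times under these settings. With a mean of at least 10 TPM as the rule, 127 members differed among the ages, 38 rose from 8 to 18 dpp, 37 from 16 to 18 dpp and 0 from 8 to 10 dpp, from a list that is shorter by construction. With only the 2 ages compared 0 rose from 8 to 10 dpp. With median-of-ratios factors 2 fell from 8 to 10 dpp, 19 rose and 23 fell from 14 to 16 dpp, 31 fell from 16 to 18 dpp, 117 were above and 74 below 18 dpp in adult cells, and the median from 8 to 18 dpp was -0.020, against -0.32 with quantile normalization. From 14 to 16 dpp 19 fell over every gene of the transcript table and 21 with mice numbered 1 to 3 only. With 18 dpp mice 4 and 5 only, which leaves 2 mice at that age, 13 rose and 17 fell from 16 to 18 dpp. Members with changed transcript use numbered 14 at 10 points, 2 with transcripts of at least 3 TPM and 11 for 8 against 18 dpp. Except where a setting's construction shows it, the cause was not tested.

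Leaving out 1 sample at a time gave 190 to 199 members differing among the ages, 66 to 72 higher and 100 to 108 lower at 18 than at 8 dpp, 0 to 4 higher and 0 to 1 lower at 10 than at 8 dpp, 15 to 20 and 32 to 51 at 12 than at 10 dpp, 10 to 15 and 26 to 47 at 16 than at 14 dpp, 50 to 61 and 53 to 81 at 18 than at 16 dpp, a median of -0.20 to -0.16, 3 to 6 members with changed transcript use, and 57 to 63 above and 137 to 139 below 18 dpp in adult cells. Of 2009 alternative values of 49 named members from 8 to 18 dpp, 1960 kept their side of the threshold and, but for 10 values of 6 members that changed sign without a call in either fit, their direction, 33 (8 members) lost the call, 14 (7 members) gained one and 2 turned, Zfp207 to 0.12 with median-of-ratios factors and Zfp217 to -0.060 with 18 dpp mice 4 and 5 only.

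Same-numbered mice are different animals, and their deviations did not move together (65 pairs, r from -0.27 to 0.28 with a median of 0.01, 3 pairs over 0.1), so the numbers do not pair them. With mouse number as a replicate block 71 members rose and 108 fell from 8 to 18 dpp, 194 differed among the ages, 3 had changed transcript use, and among named members the call on Zfp113 (0.36) was lost.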
